A study of Homo sapiens with 60 samples.

Results

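The S phase and DNA replication genes described here are 39 genes chosen by symbol from the deposited expression table, which lists 57665 genes. They cover origin licensing, the replicative helicase and fork, polymerases and primase, the sliding clamp with its loader and Okazaki fragment enzymes, nucleotide supply, chromatin and histone supply, and the cyclins and transcription factor of the G1 to S transition. All 39 were found, and all 39 were among the 18040 genes that passed the filter on low counts. RNA was sequenced from U2OS, an established human osteosarcoma line, stably carrying Dmr-PERK, which joins the kinase domain of mouse PERK to a DmrB domain that dimerizes when the ligand AP20187 (the dimerizer) is added. Active PERK adds a phosphate to eIF2 alpha, a factor of translation initiation. This triggers the integrated stress response (ISR): less protein is made, while more of the transcription factor ATF4 is produced.

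Every group was the same line, with a genotype labelled WT, so the construct was present in treated and untreated cells alike. Treated groups received dimerizer at 0.01, 0.2 or 3 nM and were collected at 1, 2 and 4 h and at 8, 16 and 24 h. Each of these 18 groups had 3 replicates, and the untreated cells were 2 sets of 3 replicates labelled 0 h. The middle dose is 195 pM in the sample labels and is written 0.2 nM here, as the design text rounds it. Per the labels and the design text, the doses were chosen to reduce protein synthesis minimally, partially and most strongly. Seeding preceded treatment by a day, and the time of dimerizer addition differed between groups. There was no untreated culture for each time. Nothing in the labels says that replicates came from separate cultures, so p-values measure only how far these samples spread, and that spread may be technical.

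DNA replication is prepared in G1, when the origin recognition complex, CDC6 and CDT1 load the MCM2-7 helicase onto DNA. At the start of S phase CDC45, the GINS complex and MCM10 turn the helicase on, and DNA polymerases, the clamp PCNA and its loader RFC copy the strands. Many of these genes are transcribed by E2F factors once cyclin-dependent kinases have inactivated the retinoblastoma protein, so their mRNAs are abundant in proliferating cells around the G1 to S transition.

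The libraries differed in depth: untreated set 1 and the 0.01 and 0.2 nM groups (39 libraries) held 5598612 to 10367375 counts, and untreated set 2 and the 3 nM groups (21 libraries) held 20713699 to 28436165. Mitochondrial mRNA took 8.84% ± 0.615 of counts in untreated set 1 and 4.44% ± 0.0530 in untreated set 2 (SD, n = 3 each), and 3.37% to 5.43% in the means of the treated groups, so untreated set 1 stood apart. Depth is thus tied to dose, and its part in the results was not tested. For this reason each result against untreated was also computed against either set alone. The mesenchymal markers VIM, SPARC and COL1A1 were high in untreated cells (2798, 1805 and 419 TPM, medians of 6 libraries), and the osteoblast factor RUNX2 had a median of 22.6 TPM. COL1A2 and SP7 were at or near 0, as was the T cell marker CD3E, and of the epithelial markers the keratins KRT8 and KRT18 were expressed (244 and 631 TPM) while EPCAM, CDH1 and KRT5 were low (4.41, 2.45 and 1.16 TPM).

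In untreated cells the members' levels, in TPM (the share of transcripts, allowing for each one's length), spanned from TYMS at 285 ± 13.5 TPM to POLA1 at 7.72 ± 0.967 TPM (SD, n = 6). TYMS makes thymidylate and POLA1 is the catalytic subunit of the priming polymerase. PCNA averaged 204 ± 5.83 TPM, RRM2, a small subunit of ribonucleotide reductase, 172 ± 13.2 TPM and the helicase subunit MCM7 150.2 ± 10.1 TPM. Untreated set 2 differed from set 1 in 12 members, 2 higher and 10 lower, where 14.9% of all genes tested were higher and 14% lower (edgeR, adjusted p under 0.05). On log2(TPM + 1) 11 were higher, and 3 were lower on counts without replicate 2 of every group. The median log2 difference of the 39, set 2 over set 1, was -0.040.

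On counts, most members were lower than untreated soon after the dimerizer was added. At later times most members exceeded their untreated level, with a course that depended on dose. At 0.01 nM, 36 of the 39 were lower than untreated after 1 h, where 15.5% of all genes tested were lower. The other 3 did not pass the test, and 25 to 35 were lower with 1 replicate of every group left out. After 2 h 37 were lower and 1, the polymerase epsilon subunit POLE, was higher, against 22% and 21.5% of all genes. After 4 h 23 were lower and 2 higher (26.1% and 25.9% of all genes), and after 8 h 27 were higher and 2 lower (27.8% and 26%). After 16 h all 39 were higher, against 26.9% of all genes, and after 24 h 31 were still higher, against 21%, while the other 8 did not pass. The median log2 fold change of the 39 against untreated was -0.32, -0.45, -0.17, 0.33, 0.53 and 0.23 at 1, 2, 4, 8, 16 and 24 h, and the median of all genes tested stayed between -0.015 and 0.021. The smaller counts rested on few libraries: POLE after 2 h did not pass without replicate 1 or 2 of every group, 1 member was higher after 4 h without replicate 2, and 1 was lower after 8 h without replicate 3. In bulk RNA, fewer cells in S phase and less mRNA of these genes per cell cannot be told apart. At 0.01 nM after 1 h the ISR markers ATF4, ASNS, TRIB3 and CHAC1 did not pass against untreated. Their log2 fold changes were 0.0079, -0.0069, -0.22 and -0.16. This depended on the untreated set. Against set 1 alone ATF4, TRIB3 and CHAC1 were lower (-0.16, -0.34 and -0.58), and against set 2 alone ATF4 was higher (0.17). DDIT3 was higher at that dose and time (0.26, edgeR adjusted p = 0.0212), though not against untreated set 1 alone (-0.040). After 2 h at 0.01 nM ATF4, TRIB3 and CHAC1 were higher (0.29, 0.62 and 1.77), and ASNS did not pass (0.14). Higher after 1 h at 0.2 nM were ATF4, DDIT3 and CHAC1 (0.20, 0.81 and 1.15), though ATF4 not against set 1 alone (0.036). After 1 h at 3 nM these 3 were also higher (0.30, 1.43 and 1.87). TRIB3 did not pass after 1 h at 0.2 or 3 nM (-0.20 and -0.13). With no untreated culture for each time, whether the early fall came from the dimerizer was not tested.

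At 0.2 nM more members were lower than untreated after 4 and 8 h than at 0.01 nM. Members lower than untreated numbered 29 after 1 h (19% of all genes lower), 32 after 2 h (22.4%) and 30 after 4 h (29.2%), with 1 member higher at 2 h (22.4% of all genes) and 1 at 4 h (30.1%). After 8 h 6 were higher and 19 lower (32.8% and 30.8% of all genes), after 16 h 26 and 5 (34.9% and 31.5%), and after 24 h 29 and 4 (34.3% and 31.2%). The count lower after 24 h was 2 without replicate 1 of that group, and 2 against untreated set 2 alone. The member higher after 2 h did not pass without replicate 1 or 2 of every group, nor did the one after 4 h without replicate 2. The median log2 fold change was -0.25, -0.31, -0.43, -0.10, 0.27 and 0.32 at the 6 times.

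At 3 nM the members split. After 1 h 29 were lower (21% of all genes; 18 without replicate 3 of every group). After 2 h 24 were lower and 2 higher (23.1% and 27.4%), after 4 h 23 and 5 (31.9% and 34.9%), and after 8 h 21 and 10 (34% and 38.5%). After 16 h 23 were higher and 6 lower (40.6% and 35.5% of all genes), and after 24 h 24 were higher and 7 lower (41.1% and 36%). The median log2 fold change was -0.19, -0.20, -0.24, -0.26, 0.31 and 0.27. Without replicate 1 of every group 1 member was higher after 2 h, against untreated set 2 alone 8 were higher after 4 h, and the count lower after 16 h was 10 with RLE scaling and 3 without the filter. The share of members lower after 24 h at 3 nM, 7 of 39, was below the share of all genes that were lower.

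**Figure D1:**
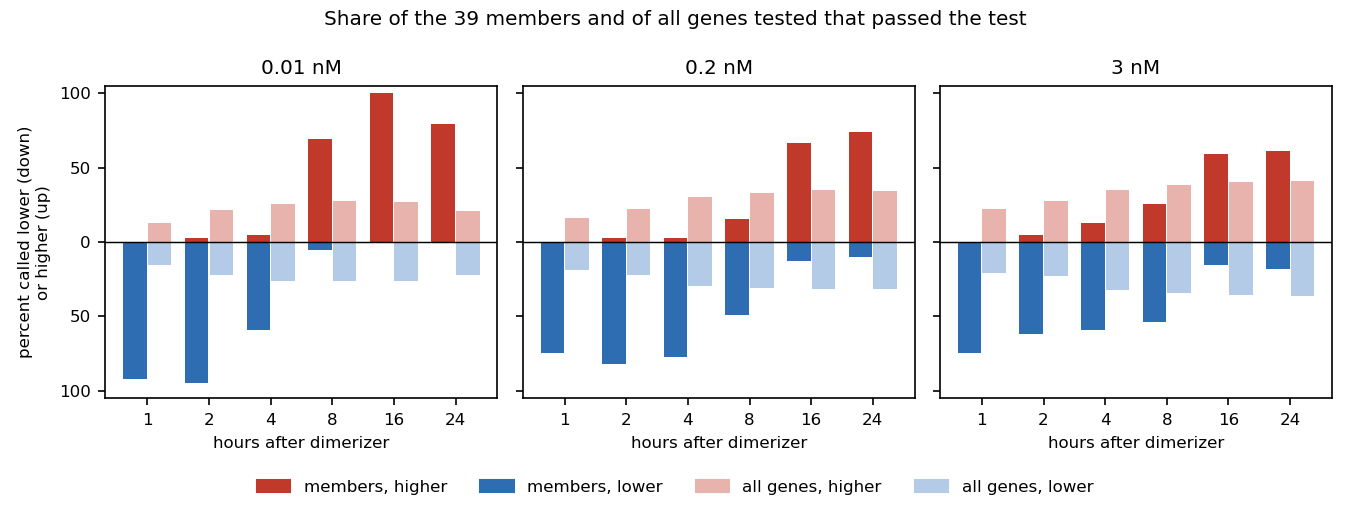
Percent of the 39 members (dark bars) and of all 18040 genes tested (pale bars) that were higher (upward) or lower (downward) than untreated cells at an edgeR adjusted p under 0.05, by hours after dimerizer (x axis) for each dose (panels). Members lower than untreated numbered 36, 29 and 29 after 1 h at 0.01, 0.2 and 3 nM, and members higher numbered 31, 29 and 24 after 24 h.

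The counts depended on the scale in the early hours. On log2(TPM + 1) with limma, the median of all genes moved up by as much as 0.16 relative to the count scale, and the members lower than untreated after 1 h numbered 11, 2 and 4 at 0.01, 0.2 and 3 nM. Relative to the median of all genes on the same scale, the members' median log2 fold change after 1 h was -0.25, -0.18 and -0.14 on TPM, and -0.32, -0.26 and -0.23 on counts. After 4 h the TPM values were -0.13, -0.30 and -0.24. After 8 h at 0.2 nM the split was 14 higher and 6 lower on TPM. After 16 h 39, 28 and 22 members were higher on TPM at the 3 doses, where counts gave 39, 26 and 23. Relative to the median of all genes, the members' medians after 16 h were 0.56, 0.28 and 0.27 on TPM and 0.51, 0.22 and 0.27 on counts.

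**Figure D2:**
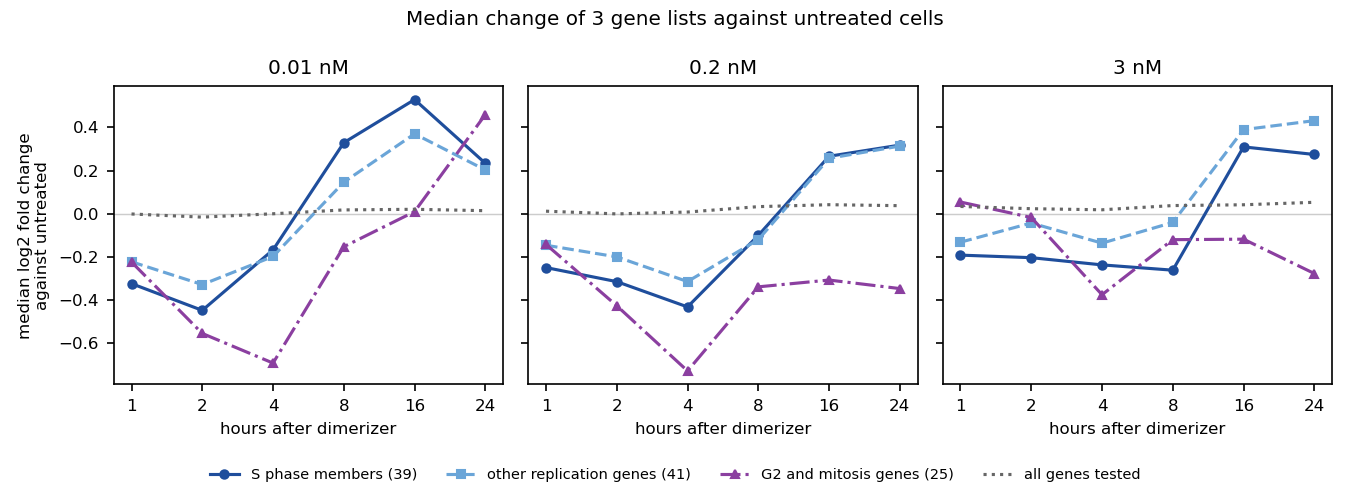
Median log2 fold change against untreated (y axis) by hours after dimerizer (x axis) for the 39 members, 41 other replication genes, 25 G2 and mitosis genes and all genes tested, 1 panel per dose. The members' median was lowest at 2 h at 0.01 nM (-0.45), at 4 h at 0.2 nM (-0.43) and at 8 h at 3 nM (-0.26).

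The steps in time did not use untreated libraries. At 0.01 nM, 36 members were higher at 8 h than at 4 h, where 14.7% of all genes were, 24 were higher at 16 h than at 8 h (15.8%), and 29 were lower at 24 h than at 16 h (13.2%). At 0.2 nM, 23 were higher at 8 h than at 4 h (15.9%; 15 without replicate 3 of every group) and 33 at 16 h than at 8 h (16.5%). At 3 nM, 8 were higher at 8 h than at 4 h (23.6% of all genes; 18 without replicate 1 of every group and 3 without replicate 2 or 3), and 34 were higher and 1 lower at 16 h than at 8 h (27.3% and 26.9%). The rise thus came mainly between 4 and 8 h at 0.01 nM and between 8 and 16 h at 3 nM. From 4 to 24 h, 35 members were higher at 0.01 nM (21.9% of all genes), 37 at 0.2 nM (25.6%) and 35 at 3 nM, where 2 were lower (34.5% and 33.4%).

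The first steps involved fewer members, and their counts moved with the replicates used. At 2 h against 1 h, 9 members were lower and 1 higher at 0.01 nM (12.7% and 15.5% of all genes; 3 lower without replicate 2 or 3 of every group), 8 were lower at 0.2 nM (12.7%; 4, 4 and 2 without replicate 1, 2 or 3), and 6 were higher and 3 lower at 3 nM (19.3% and 12%; 1 higher without replicate 2 and 8 lower without replicate 1). At 4 h against 2 h, 19 were higher at 0.01 nM (15.9%; 11 and 9 without replicate 2 or 3), 3 were higher and 7 lower at 0.2 nM (18.5% and 16.8%; 4 lower without replicate 2 or 3), and 11 were higher and 7 lower at 3 nM (25.4% and 24.8%; 6 higher and 4 lower without replicate 2). At 24 h against 16 h, 2 were higher at 0.2 nM (4.16%; none without replicate 2 or 3) and 5 were higher and 5 lower at 3 nM (9.62% and 11.5%; 2 lower without replicate 2 or 3, and 3, 2 and 0 higher without replicate 1, 2 or 3). By group means, 33 members had their lowest level at 2 h and 37 their highest at 16 h at 0.01 nM, 21 their lowest at 4 h and 24 their highest at 24 h at 0.2 nM, and 14 their lowest at 1 h and 22 their highest at 24 h at 3 nM. The highest group mean was a median of 2.07 times the lowest at 0.01 nM, 1.69 times at 0.2 nM and 1.57 times at 3 nM.

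Between the lower doses, most members differed at 8 and 16 h. At 0.2 nM, 36 members were lower than at 0.01 nM after 8 h, where 17.8% of all genes were, and 31 were lower and 2 higher after 16 h (21.4% and 23.5%; 1 higher without replicate 1 of every group and none without replicate 2 or 3). The median log2 fold changes were -0.38 and -0.33. At 3 nM, 21 members were higher and 1 lower than at 0.2 nM after 4 h (21.3% and 15.5%), with a median of 0.22, and after 24 h 10 were higher and 15 lower (30.6% and 25.5%). These counts between 0.2 and 3 nM depended on the scaling: on log2(TPM + 1) 3 members were higher after 4 h, and without the filter on low counts 16 were higher and 8 lower after 24 h. Without replicate 2 of every group 13 were higher after 4 h and 9 lower after 24 h, and without replicate 3 the count lower after 24 h was 8. At the other times fewer members differed between the lower doses. After 1 h none passed with edgeR (0.344% of all genes were higher and 0.416% lower), while 6 had an unadjusted p under 0.05, all of them higher at 0.2 nM, and DESeq2 called 1 higher. After 2 h 4 were higher at 0.2 nM (5.53%; 1 and 0 without replicate 2 or 3 of every group). After 4 h 15 were lower and 1 higher (10.3% and 13.6%; 7 and 8 lower without replicate 2 or 3), and after 24 h 13 were higher and 6 lower (26.9% and 24.6%; 5 and 7 higher without replicate 2 or 3). Between 3 and 0.2 nM, 3 members were higher and 2 lower after 1 h (15.9% and 11.4%; none without replicate 2, and 1 each way without replicate 3). After 2 h 13 were higher and 2 lower (20.9% and 15.2%; 7 higher without replicate 2, and none lower without replicate 2 or 3), after 8 h 7 and 10 (23.4% and 14.8%), and after 16 h 10 and 9 (26.9% and 18.8%; 6 higher without replicate 2). The 0.2 and 3 nM libraries differed in depth as given above, which cannot be told apart from dose.

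The members' promoters were then read for a word of the E2F type. The words TTTCCCGC, TTTCGCGC, TTTGCCGC and TTTGGCGC were searched on both strands in the window from 250 bases before to 50 bases after each RefSeq start (GRCh38.p14). A word and its reverse complement can overlap, as in MCM2. Of the 36 members with a window, 20 (55.6%) held at least 1 word, against 1090 of 27305 genes with a window (3.99%). For a shorter core without the first T, the shares were 80.6% of members and 15.3% of all genes. The members were chosen as S phase genes, many of them transcribed by E2F factors. A high share thus follows from the list and says nothing of their course here. All genes with a window were counted, whether or not they were tested here. A match is a description of the letters and not a site of binding. The 4 promoters below, with each word in capitals, belong to described members with matches that differed in their course: E2F1 (chr20:33686336-33686635, minus strand), MCM2 (chr3:127598161-127598460, plus strand), CDC6 (chr17:40287629-40287928, plus strand) and POLE2 (chr14:49688165-49688464, minus strand). All are printed 5′ to 3′ along the gene's strand.
E2F1: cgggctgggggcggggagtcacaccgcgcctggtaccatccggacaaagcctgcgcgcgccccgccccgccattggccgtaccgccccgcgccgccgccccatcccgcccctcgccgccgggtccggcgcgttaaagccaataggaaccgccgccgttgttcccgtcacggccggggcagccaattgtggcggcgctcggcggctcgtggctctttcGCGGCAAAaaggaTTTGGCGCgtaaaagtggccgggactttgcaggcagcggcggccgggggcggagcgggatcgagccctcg
MCM2: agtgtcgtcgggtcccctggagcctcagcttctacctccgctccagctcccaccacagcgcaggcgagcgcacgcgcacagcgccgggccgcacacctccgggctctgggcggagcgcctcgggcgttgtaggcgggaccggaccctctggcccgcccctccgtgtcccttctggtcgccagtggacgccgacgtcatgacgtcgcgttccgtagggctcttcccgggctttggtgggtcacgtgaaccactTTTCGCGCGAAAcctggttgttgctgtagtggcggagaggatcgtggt
CDC6: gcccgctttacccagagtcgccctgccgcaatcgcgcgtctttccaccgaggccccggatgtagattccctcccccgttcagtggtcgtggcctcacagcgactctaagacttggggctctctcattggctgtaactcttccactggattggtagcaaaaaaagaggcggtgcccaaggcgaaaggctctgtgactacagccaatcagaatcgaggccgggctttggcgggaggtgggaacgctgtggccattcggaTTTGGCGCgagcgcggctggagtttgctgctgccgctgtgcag
POLE2: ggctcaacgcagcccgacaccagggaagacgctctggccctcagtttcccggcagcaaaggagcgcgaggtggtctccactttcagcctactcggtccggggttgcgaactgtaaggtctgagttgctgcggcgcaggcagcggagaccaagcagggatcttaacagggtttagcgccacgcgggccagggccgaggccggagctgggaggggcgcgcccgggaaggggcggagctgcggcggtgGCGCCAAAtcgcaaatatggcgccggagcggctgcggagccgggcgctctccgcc
CDC6 and POLE2 had the highest rises at 3 nM and hold 1 word each, while E2F1 and MCM2, with 2 each, were 0.27 and -0.092 (log2 fold change against untreated after 24 h at 3 nM, the second not passing the test). CDC6 and POLE2 were taken from the members with 1 word by their change, so these 4 say nothing of a relation between words and change.

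Among the 10 licensing genes, CDC6 and ORC6 had the largest rises at 3 nM after 24 h. CDC6, the ATPase that brings MCM2-7 to origins (chr17:40287633-40304657, plus strand, GRCh38, GENCODE 29), was at 179, 187 and 183 CPM (read counts relative to library size after TMM normalization) at 3 nM after 24 h, against 71.6, 68.4 and 67.2 CPM in untreated set 1 and 70.3, 62.6 and 64.6 CPM in set 2. All 3 treated libraries lay above all 6 untreated ones, and the log2 fold change was 1.44 ± 0.049, edgeR adjusted p = 4.06e-34, where ± is the standard error implied by the test, here and below. At 4 h it was already at 89.4, 87.1 and 84.7 CPM at 3 nM, above every untreated library (log2 fold change 0.37 ± 0.053, edgeR adjusted p = 1.52e-08). At 0.2 nM CDC6 had 143, 137 and 136 CPM after 16 h and 125, 129 and 124 CPM after 24 h, and at 0.01 nM it had 122, 119 and 121 CPM after 16 h and 75.7, 78.8 and 71.7 CPM after 24 h. The rise was thus held to 24 h at the higher doses, with log2 fold changes against untreated of 0.90 at 0.2 nM and 1.44 at 3 nM, while at 0.01 nM it was 0.16 by then.

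ORC6, the smallest subunit of the origin recognition complex (chr16:46689643-46698394, plus strand), was at 72.2, 71.7 and 70.9 CPM after 24 h at 3 nM, against 31.6, 32.6 and 30.4 CPM in untreated set 1 and 34.8, 35.4 and 38.3 CPM in set 2. The groups did not overlap (log2 fold change 1.08 ± 0.042, edgeR adjusted p = 3.91e-31). ORC6 was 1 of the 3 members not lower after 1 h at 0.01 nM (-0.12, edgeR adjusted p = 0.167). Of the same complex, the ATPase subunit ORC1 had 21.1, 22.0 and 20.2 CPM at 3 nM after 24 h and 35.4, 33.7 and 31.3 CPM at 0.01 nM after 16 h, against 16.1 to 19.7 CPM in untreated cells. Its log2 fold changes, 0.19 and 0.87, both passed the test.

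The MCM2-7 subunits, which form the helicase ring, were all lower on counts after 1 h at each dose. Of all genes 15.5%, 19% and 21% were lower then at 0.01, 0.2 and 3 nM. On log2(TPM + 1) this did not hold at 0.2 and 3 nM, where few members were lower, as given above. MCM2 had the largest change among licensing genes at 3 nM after 4 h. It was at 88.3, 85.6 and 80.5 CPM there, against 122, 128 and 129.7 CPM in untreated set 1 and 114, 109 and 116 CPM in set 2, with no overlap (log2 fold change -0.50 ± 0.048, edgeR adjusted p = 9.83e-14). After 24 h MCM2 was at 113, 114 and 109 CPM at 3 nM and 145, 151 and 153 CPM at 0.2 nM. The 3 nM values overlapped the untreated ones and the change did not pass the test (-0.092, edgeR adjusted p = 0.0671; it passed against set 1 alone, at -0.17), while all 3 values at 0.2 nM lay above untreated (log2 fold change 0.32 ± 0.050, edgeR adjusted p = 8.44e-08). At 3 nM after 24 h the other ring subunits had log2 fold changes against untreated of -0.068 (MCM3), 0.034 (MCM4), 0.23 (MCM5), -0.17 (MCM6) and 0.42 (MCM7). Of these MCM5 and MCM7 were higher, MCM6 was lower, and MCM3 and MCM4 did not pass. At 0.01 nM after 16 h all 6 subunits were higher, from 0.35 for MCM6 to 0.78 for MCM5. CDT1, the loading partner of CDC6, was higher after 16 h at each dose, with log2 fold changes of 0.89, 0.59 and 0.48 at 0.01, 0.2 and 3 nM.

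**Figure D3:**
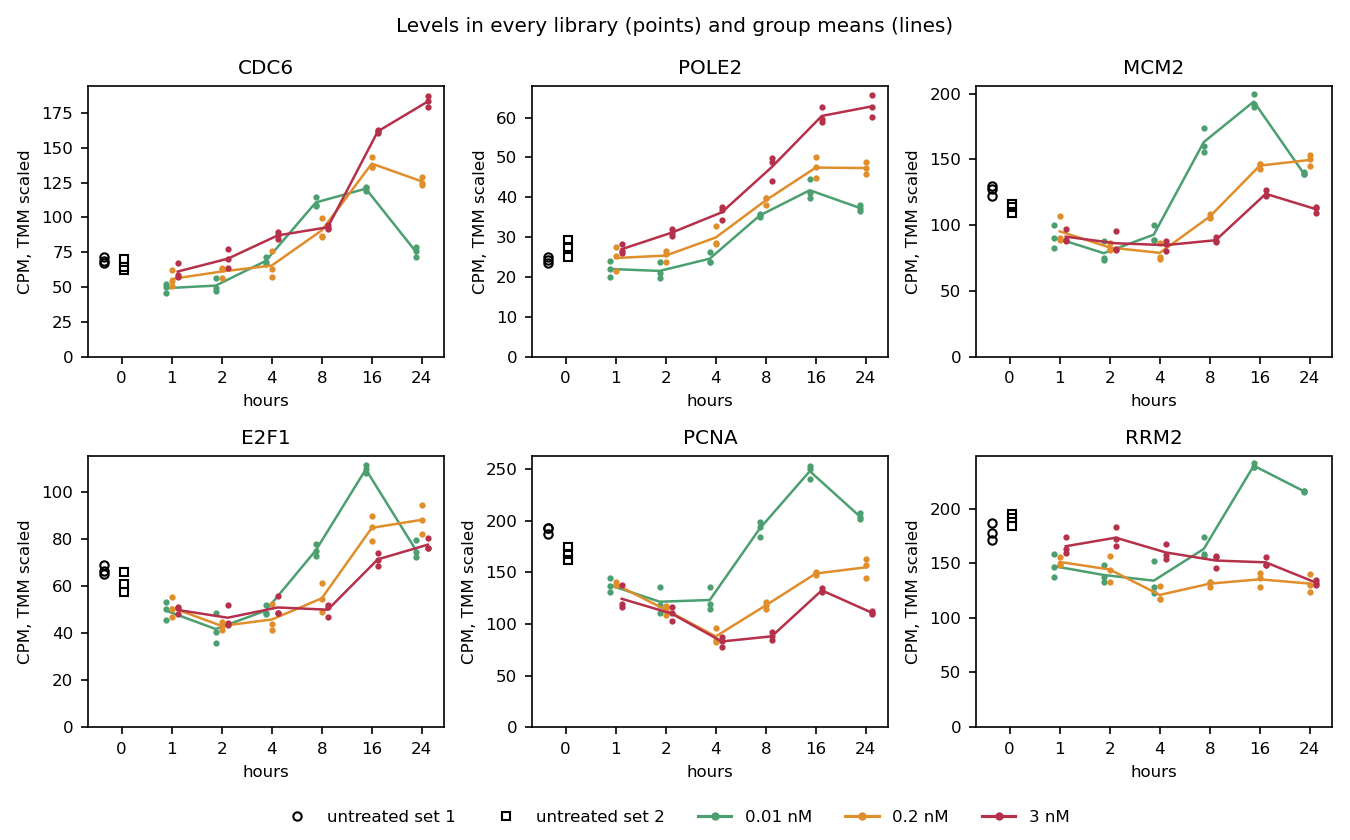
CPM after TMM scaling (y axis, from 0) of 6 members in every library (points) with group means (lines) by hours after dimerizer (x axis); untreated sets are open symbols at 0 h. CDC6 and POLE2 had their highest group means at 3 nM after 24 h, and PCNA was lowest at 3 nM after 4 h, between 77.4 and 87.7 CPM.

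At 3 nM after 24 h, 41.1% of all genes were higher than untreated and 36% lower. Of the 6 genes of helicase activation and the fork, 4 were higher and 1 lower there, with a median log2 fold change of 0.41. GINS3, a subunit of the GINS complex that joins the active helicase, was at 39.02, 36.9 and 38.98 CPM, against 19.2 to 24.5 CPM in the 6 untreated libraries, with no overlap (log2 fold change 0.85 ± 0.059, edgeR adjusted p = 9.61e-20). MCM10, needed to start unwinding, was at 84.7, 89.1 and 88.7 CPM at 3 nM and 79.7, 83.0 and 88.1 CPM at 0.2 nM after 24 h, against 50.2 to 54.9 CPM in untreated libraries. Both treated groups lay above untreated, with log2 fold changes of 0.74 and 0.68.

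The GINS subunits, which act as 1 complex, did not move as 1 set of mRNAs. GINS1 was at 20.5, 20.2 and 19.7 CPM at 3 nM after 4 h, against 31.8 to 33.6 CPM in untreated libraries, below all of them (log2 fold change -0.69 ± 0.062, edgeR adjusted p = 7.72e-15). After 24 h at 3 nM GINS1 did not pass the test (0.077, edgeR adjusted p = 0.214; it passed without the filter on low counts, at 0.16) and GINS2 was lower (log2 fold change -0.20 ± 0.066, edgeR adjusted p = 0.00469). At 0.01 nM after 16 h GINS1, GINS2 and GINS3 were all higher, with log2 fold changes of 0.36, 0.71 and 0.52. CDC45, the third component of the active helicase, was the member with the largest rise in this group at 0.01 nM after 16 h (0.96), and was also higher after 24 h at 3 nM (0.59). CLSPN, the checkpoint mediator Claspin, was lower after 4 h at each dose (-0.40, -0.69 and -0.50).

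Among the polymerase and primase genes, subunits of the same enzyme again differed. POLE2, the accessory subunit of the leading-strand polymerase epsilon (chr14:49643555-49688422, minus strand), was at 60.2, 65.7 and 62.7 CPM at 3 nM after 24 h, against 24.3, 25.1 and 23.4 CPM in untreated set 1 and 27.5, 25.1 and 29.4 CPM in set 2. The treated libraries lay above all untreated ones, with a log2 fold change of 1.28 ± 0.048, edgeR adjusted p = 6.49e-32. It was also the member of this group with the largest change at 3 nM after 4 h (log2 fold change 0.49 ± 0.052, edgeR adjusted p = 2.36e-12) and at 0.2 nM after 24 h (0.88 ± 0.058, edgeR adjusted p = 6.04e-20). At 0.01 nM after 2 h it was lower (-0.27 on counts), but on log2(TPM + 1) it had 0.094, so its early direction depended on the scale.

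POLE, the catalytic subunit of the same enzyme, was at 125, 130.0 and 129.8 CPM at 3 nM after 24 h and 169, 162 and 161 CPM at 0.01 nM after 16 h, against 91.0 to 116 CPM in untreated libraries (log2 fold changes 0.31 and 0.67, both passing). POLA1, the catalytic subunit of polymerase alpha, was at 46.5, 45.9 and 47.5 CPM at 3 nM after 24 h, against 28.1 to 32.7 CPM, with no overlap (log2 fold change 0.61 ± 0.052, edgeR adjusted p = 5.44e-16). Its partner POLA2 was lower at 3 nM after 4 h (-0.40 ± 0.060, edgeR adjusted p = 4.18e-08) and did not pass after 24 h (-0.032, edgeR adjusted p = 0.626). PRIM1, the primase that makes the RNA primer, was lower at 4 h and higher at 24 h at 3 nM (-0.48 and 0.52). Exons of PRIM1 overlap 2 genes on the same strand and 1 on the opposite strand in GENCODE 29, so its counts are less certain. POLD1, the catalytic subunit of the lagging-strand polymerase delta, was lower after 16 h at 3 nM (-0.16). It was at 78.8, 75.1 and 74.4 CPM after 24 h, within the untreated range of 63.6 to 84.1 CPM. Its untreated means were 83.4 CPM in set 1 and 69.1 CPM in set 2. That difference (-0.27 on the log2 scale, set 2 over set 1) was larger than the 16 h fall. The fall itself, and not only its size, thus depends on the set used.

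**Figure D4:**
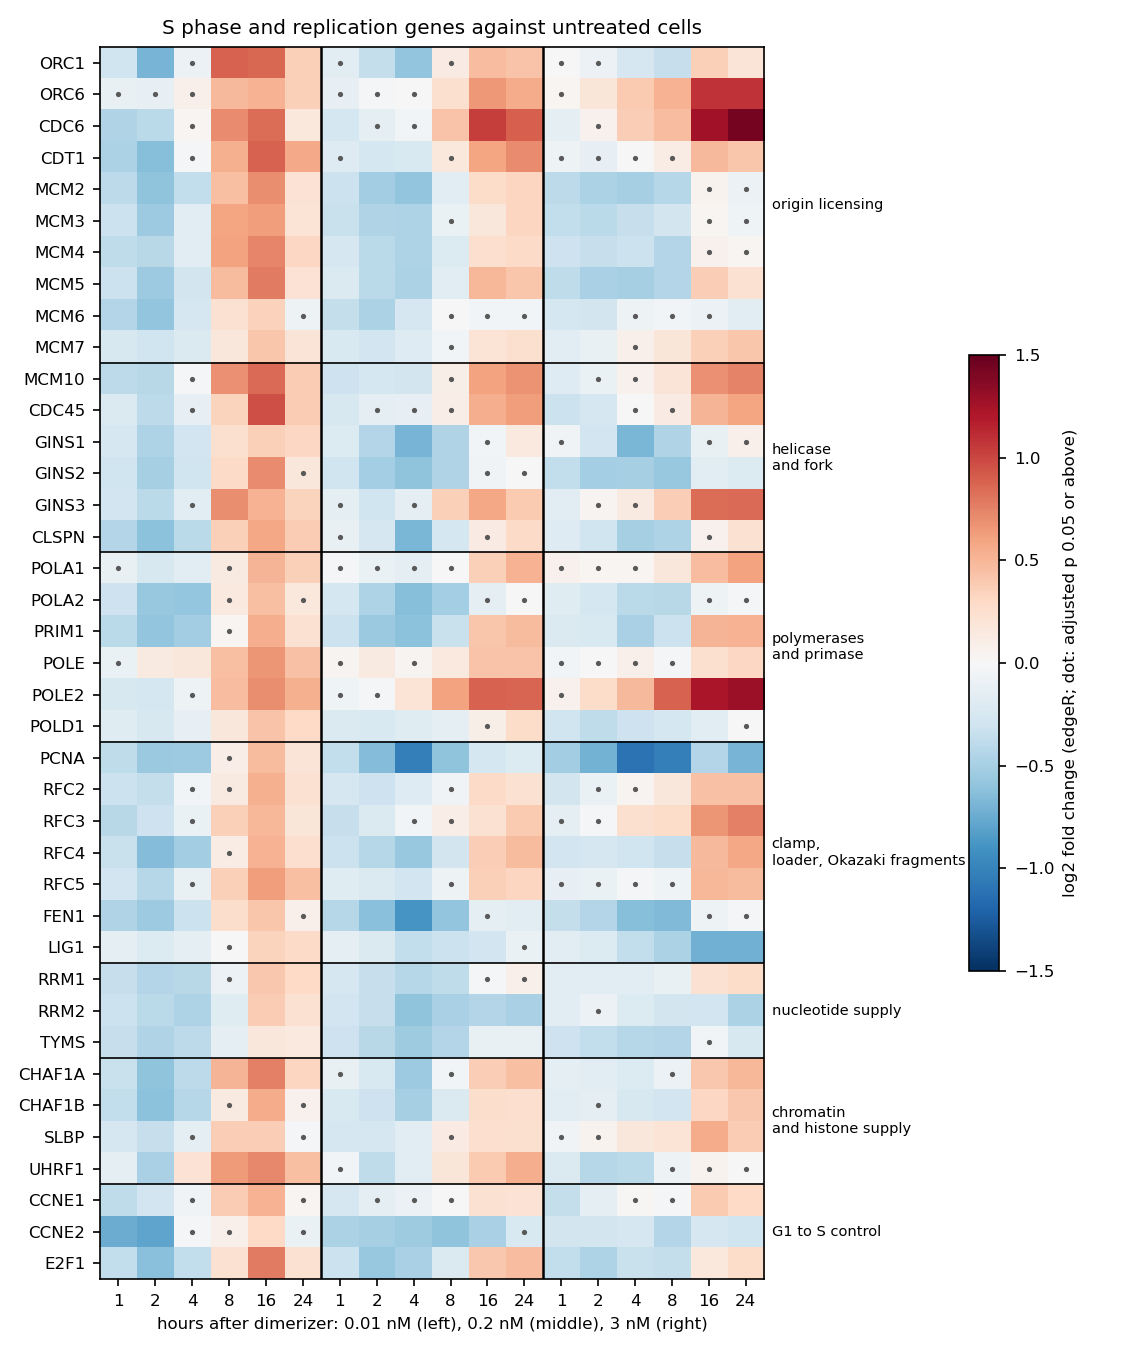
Log2 fold change against untreated of each of the 39 members (rows, by role) at each time (columns) for 0.01 nM (left), 0.2 nM (middle) and 3 nM (right); red is higher, blue is lower, and a dot marks an edgeR adjusted p of 0.05 or above. PCNA and LIG1 are blue at 3 nM after 24 h (-0.69 and -0.72), where CDC6 and POLE2 are red (1.44 and 1.28).

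The clamp group held both the largest falls and several rises at 3 nM. PCNA, the sliding clamp that tethers polymerases (chr20:5114953-5126626, minus strand), was at 87.7, 83.9 and 77.4 CPM at 3 nM after 4 h and 113, 111 and 109 CPM after 24 h, against 193, 193 and 187 CPM in untreated set 1 and 174, 162 and 168 CPM in set 2. All treated libraries lay below all untreated ones at both times (log2 fold change -1.11 ± 0.048, edgeR adjusted p = 2.84e-28 and -0.69 ± 0.047, edgeR adjusted p = 3.99e-20). At 0.2 nM PCNA had 96.5, 84.3 and 82.9 CPM after 4 h and 144, 163 and 157 CPM after 24 h. The 24 h values touched the untreated range, and that fall (-0.21 ± 0.049, edgeR adjusted p = 1.87e-04) did not hold against untreated set 2 alone, where it was -0.12, or on TPM. At 0.01 nM after 16 h PCNA was at 253, 250.2 and 240.5 CPM, above every untreated library (log2 fold change 0.47 ± 0.048, edgeR adjusted p = 1.43e-12). The annotation has 3 pseudogenes of the PCNA name, so reads may be shared with them.

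LIG1, which seals Okazaki fragments (chr19:48115445-48170603, minus strand), was lower the longer the treatment up to 16 h at 3 nM. It had 70.8, 66.5 and 66.1 CPM after 1 h, 60.4, 58.3 and 56.5 CPM after 4 h, 45.2, 44.2 and 47.9 CPM after 16 h and 46.5, 45.8 and 45.0 CPM after 24 h, against 70.4 to 83.4 CPM in untreated libraries. The 16 and 24 h values lay below all untreated libraries (log2 fold change after 24 h -0.72 ± 0.046, edgeR adjusted p = 4.81e-21). At 0.2 nM after 24 h LIG1 did not pass the test (-0.095, edgeR adjusted p = 0.0922; it passed without replicate 3 of that group, at -0.17), and at 0.01 nM it was higher (0.29). FEN1, the flap nuclease that acts before LIG1, was lower after 4 h at each dose (-0.32, -0.88 and -0.64) and at 3 nM after 24 h had 132, 131 and 132 CPM, against 124 to 141 CPM in untreated libraries, a difference that did not pass (-0.018, edgeR adjusted p = 0.756). FEN1 shares exon positions with a gene on each strand and has a named pseudogene.

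The loader subunits RFC2 to RFC5, which open PCNA onto DNA, were all higher at 3 nM after 24 h, unlike PCNA itself. RFC3 was at 53.2, 55.3 and 55.5 CPM, against 29.7 to 35.3 CPM in untreated libraries, with no overlap (log2 fold change 0.76 ± 0.058, edgeR adjusted p = 6.69e-18). RFC4 was at 58.2, 63.2 and 62.5 CPM at 0.2 nM after 24 h and 65.7, 64.6 and 67.5 CPM at 3 nM, against 42.8 to 45.3 CPM in untreated libraries (log2 fold changes 0.47 and 0.58), both groups above all untreated libraries. RFC2 and RFC5 had log2 fold changes of 0.44 and 0.48 at 3 nM after 24 h.

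Of the 3 nucleotide supply genes, RRM2 and TYMS were lower than untreated in 11 of the 12 groups at 0.2 and 3 nM, and RRM1 was lower in 8 and higher in 2. RRM2 (chr2:10120698-10131419, plus strand) was at 132, 135 and 130.2 CPM at 3 nM and 124, 140.2 and 130.1 CPM at 0.2 nM after 24 h, against 171, 178 and 187 CPM in untreated set 1 and 195, 184 and 192 CPM in set 2. Both groups lay below all untreated libraries (log2 fold change -0.48 ± 0.044, edgeR adjusted p = 1.18e-14 and -0.49 ± 0.049, edgeR adjusted p = 3.45e-13). At 0.01 nM after 16 h RRM2 was above them, at 242, 238 and 238 CPM (log2 fold change 0.38). RRM1, the large subunit of the same reductase, was at 157, 167 and 153 CPM at 3 nM after 24 h, against 129 to 135 CPM, and was higher (0.27 ± 0.041, edgeR adjusted p = 2.79e-08), so the subunits changed in opposite directions. TYMS was at 244, 231 and 219 CPM after 4 h and 260.0, 264 and 264 CPM after 24 h at 3 nM, against 293 to 332 CPM in untreated libraries, below all of them at both times (log2 fold change -0.43 and -0.24). Its smaller change at 0.2 nM after 24 h (-0.11 ± 0.040, edgeR adjusted p = 0.0133) was 0.050 on log2(TPM + 1), the opposite sign, without passing the test there, and -0.069 without replicate 1 of that group, also not passing. RRM2 and TYMS have pseudogenes of their name.

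The subunits of the CAF-1 histone chaperone, which deposits histones behind the fork, were higher at 3 nM after 24 h. CHAF1A was at 59.4, 61.5 and 57.6 CPM, against 38.9 to 46.6 CPM in untreated libraries, above all of them (log2 fold change 0.50 ± 0.060, edgeR adjusted p = 5.81e-11). CHAF1B was at 28.2, 28.6 and 28.9 CPM, against 19.8 to 24.5 CPM, also above all of them (0.40 ± 0.061, edgeR adjusted p = 3.92e-08). SLBP, which binds the stem loop of histone mRNAs, was higher at 3 nM after 16 h and 24 h (0.56 and 0.38). UHRF1, which recruits the maintenance methyltransferase to new DNA, was at 76.7, 73.8 and 77.2 CPM at 3 nM after 4 h, against 109, 115 and 111 CPM in untreated set 1 and 94.3, 88.4 and 89.0 CPM in set 2, below all of them (log2 fold change -0.41 ± 0.046, edgeR adjusted p = 2.16e-11). After 24 h it was at 142, 148 and 150.1 CPM at 0.2 nM, above all untreated libraries (log2 fold change 0.55 ± 0.047, edgeR adjusted p = 1.84e-15). At 3 nM after 24 h it had 102, 101 and 99.4 CPM, between the untreated sets, and its log2 fold change was -0.15 against set 1 alone and 0.16 against set 2 alone.

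In the control of the G1 to S transition, the E-type cyclins parted. CCNE1 was at 43.0, 45.2 and 41.7 CPM at 3 nM after 24 h, against 39.8, 37.2 and 37.2 CPM in untreated set 1 and 32.5, 30.6 and 34.2 CPM in set 2, above all of them (log2 fold change 0.30 ± 0.053, edgeR adjusted p = 1.08e-06). CCNE2 was at 13.0, 11.8 and 13.7 CPM, against 13.7, 15.3 and 15.9 CPM in untreated set 1 and 18.5, 14.4 and 16.9 CPM in set 2, with 1 treated value level with the lowest untreated one (log2 fold change -0.30 ± 0.092, edgeR adjusted p = 0.00322). That fall was -0.21 against untreated set 1 alone and -0.24 on log2(TPM + 1), neither passing the test. CCNE2, with as few as 54 counts in a library, was the member with the lowest counts. At 0.01 nM after 2 h it had the largest fall of all members, at 9.15, 9.50 and 8.61 CPM (log2 fold change -0.80 ± 0.13, edgeR adjusted p = 6.17e-07). E2F1, an activating E2F transcription factor among the members, was at 56.0, 48.4 and 48.5 CPM at 3 nM after 4 h and 80.5, 76.5 and 76.2 CPM after 24 h, against 68.9, 66.7 and 65.3 CPM in untreated set 1 and 66.1, 57.4 and 60.8 CPM in set 2. It was below all untreated libraries at 4 h (-0.34 ± 0.060, edgeR adjusted p = 1.55e-06) and above all of them at 24 h (0.27 ± 0.056, edgeR adjusted p = 1.71e-05).

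The change from 4 to 24 h was then compared between the higher doses. It was lower at 3 nM than at 0.2 nM in 15 members, where 16.7% of all genes tested had a lower change, and the other 24 did not pass the test. The largest difference was that of LIG1, whose change was -0.35 at 3 nM and 0.27 at 0.2 nM (difference -0.62 ± 0.081, edgeR adjusted p = 6.38e-09), followed by ORC1 (-0.58), MCM2 (-0.51), CDT1 (-0.51) and MCM3 (-0.50). The 15 included 6 of the 10 licensing genes, with MCM4 and MCM6, and also PCNA (-0.39), RRM2 (-0.39), E2F1 (-0.33), GINS2, UHRF1 (-0.30), CHAF1A (-0.30), MCM10 (-0.27) and TYMS (-0.24). CDC6 and POLE2 were not among them (0.14, edgeR adjusted p = 0.24 and 0.12, edgeR adjusted p = 0.3). On log2(TPM + 1) 9 members passed, as did 9 without replicate 3 of every group.

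Summed over the 39 members, mRNA abundance was 1873, 1708 and 1668 TPM at 0.01 nM after 2 h and 3395, 3298 and 3336 TPM after 16 h, 1917, 1756 and 1729.5 TPM at 0.2 nM after 4 h and 2654, 2719 and 2777 TPM after 24 h, and 1754, 1927 and 1854 TPM at 3 nM after 4 h and 2432, 2438 and 2426 TPM after 24 h. The untreated sets had 2027, 2031 and 2029 TPM and 2254, 2144 and 2240.2 TPM. Every library of these early groups, which had the lowest mean sum of their dose, lay below all 6 untreated libraries. Every library of the late groups lay above them. The sums after 1 h reached into the untreated range at each dose, at 2073, 1871 and 1789 TPM at 0.01 nM. They were 2210, 2021 and 2033 TPM at 0.2 nM and 2153, 1969 and 1948 TPM at 3 nM. TYMS, PCNA, RRM2 and MCM7 weigh most in such a sum.

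Another 41 replication genes outside the 39 include the remaining origin, polymerase, loader and checkpoint subunits. Of these, 35 were lower at 0.01 nM after 2 h, where 22% of all genes were. After 16 h at 0.01 nM 38 were higher and 1 lower (26.9% and 25.8% of all genes). At 3 nM after 24 h 5 were lower and 28 higher (36% and 41.1% of all genes), with a median of 0.43 on the log2 scale. RFC1, the large loader subunit, was at 389.9, 389 and 376 CPM at 3 nM after 24 h, against 118 to 131 CPM in untreated libraries (log2 fold change 1.64 ± 0.027, edgeR adjusted p = 9.26e-50), and the fork protection gene TIPIN was also higher (47.1, 48.6 and 47.3 against 15.2 to 20.1 CPM, log2 fold change 1.44). Among 21 genes of the E2F and RB family and its cyclins and inhibitors, 9 were higher and 11 lower at 3 nM after 24 h. Of all genes 41.1% were higher and 36% lower. The share of the family that was higher lay near that of all genes, and the share that was lower lay above it. The kinase inhibitor CDKN2C averaged 10.4 ± 0.852 CPM (SD, n = 3), against 63.3 to 73.0 CPM (log2 fold change -2.69 ± 0.061, edgeR adjusted p = 7.65e-43), and the pocket protein gene RBL2 had 36.5, 34.5 and 38.9 CPM, against 69.2 to 79.6 CPM (-0.98).

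Most genes of G2 and mitosis were lower after 4 h at every dose and, after 24 h, higher at 0.01 nM and lower at 0.2 and 3 nM. Of 25 such genes, all were lower after 4 h at 0.01 and 0.2 nM and 23 were lower at 3 nM, where 26.1%, 29.2% and 31.9% of all genes were lower at the 3 doses. After 24 h all 25 were higher at 0.01 nM (median 0.46; 21% of all genes higher). At 0.2 nM 23 were lower (median -0.35, with 31.2% of all genes lower). At 3 nM 20 were lower and 2 higher (median -0.28), against 36% and 41.1% of all genes. The 39 members had medians of 0.23, 0.32 and 0.27 at the 3 doses after 24 h. KIF20A, a kinesin of cytokinesis, was at 28.4, 30.8 and 32.9 CPM at 3 nM after 24 h, against 95.9 to 122 CPM in untreated libraries (log2 fold change -1.87 ± 0.050, edgeR adjusted p = 3.81e-39). NUSAP1, a spindle protein, had 77.9, 80.6 and 77.2 CPM, against 113 to 139.7 CPM (-0.70). The difference between the 2 lists was not tested. The ISR targets TRIB3 and CHAC1 had log2 fold changes of 4.49 and 4.08 in the same group.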

How the data were processed

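RNA of 60 libraries in 20 groups was analysed from a table of estimated counts per gene and a table of TPM (length-corrected transcript abundance) per gene, both made and deposited by the authors, with gene symbols beside the identifiers. Salmon 0.9.1, FastQC 0.11.5 and the build GRCh38 are named in the submitters' processing notes without a role; the annotation release and the settings were not given in the sources used here. The deposited estimated counts were rounded to whole numbers. The deposited TPM values were used for levels between genes and for limma on log2(TPM + 1) and log2(TPM + 0.1). The kit was strand-specific per the labels' protocols. In GENCODE 29, 14 members have exons that overlap a gene on the opposite strand, 6 overlap one on the same strand and 6 have a pseudogene of their name, so their counts are less certain.

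The test was edgeR's quasi-likelihood F test (edgeR 4.0.16, R 4.3.3) after TMM scaling and filterByExpr, in 1 fit with a mean per group and 40 residual degrees of freedom. The untreated level was the average of the means of its sets, weighted equally. P-values were adjusted by the Benjamini-Hochberg method within each comparison over all 18040 genes, and a gene was called at an adjusted p under 0.05. The comparisons set every treated group against untreated (18), neighbouring doses against each other (12), times within a dose (18), the untreated sets, and the change from 4 to 24 h between 3 and 0.2 nM. Alternatives were either untreated set alone, RLE scaling, no filter, DESeq2 1.42.0, limma 3.58.1 on TPM, a replicate block and left-out replicates. On counts simulated for 24 h at 3 nM over 18040 genes, the test recovered 87.9% of 66 genes changed by 0.5 on the log2 scale. It recovered 100% of 67 genes changed by 1. The simulation changed few genes, in both directions, whereas 77.1% of all genes passed in the real comparison. It thus does not show how the scaling and the test behave under so broad a change. Replicates within a group differed by more than sampling noise (chi-square per degree of freedom 1.38 to 19.2), and the median coefficient of variation of genes above 20 CPM ran from 2.74% to 5.35% over the groups. Each member had between 54 and 8739 counts in every library, and the counts cover no molecular identifiers.

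The members and the lists were chosen with earlier results of these data known. Named members were, within each role, those with the 2 largest changes at 3 nM after 24 h among those called, and the largest at 3 nM after 4 h and at 0.2 nM after 24 h. From the other lists the 2 largest at 3 nM after 24 h were named. Other members are named to account for their complex or role, and were chosen after their values were seen. Promoters (RefSeq, GRCh38.p14; 36 members matched by symbol) were those of named members with the most words, ties taken by the change at 3 nM after 24 h, a tie rule chosen after the values were seen. Positions came from GENCODE 29, in which 34 members matched by identifier and version and the others by identifier.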

Additional observations from a re-analysis of the deposited data

Results flagged for a closer look

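The change from 4 to 24 h differed between 3 and 0.2 nM by a test of the difference itself (edgeR, adjusted p under 0.05) in 15 members, all with the lower change at 3 nM. Among the members named by rule, the differences (3 nM minus 0.2 nM, log2) were -0.62 for LIG1, -0.51 for MCM2, -0.39 for PCNA, -0.39 for RRM2, -0.33 for E2F1, -0.30 for UHRF1, -0.30 for CHAF1A, -0.27 for MCM10 and -0.24 for TYMS.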

How the results depend on the processing

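Against either untreated set alone, with RLE scaling, DESeq2 or no filter, the count of members called in the main direction stayed within 1.5 times at all 18 doses and times. On TPM with limma (the same counts with either pseudocount), members lower than untreated were 11 and 12 at 0.01 nM after 1 and 4 h, 2, 15, 15 and 6 at 0.2 nM after 1, 2, 4 and 8 h, and 4, 10 and 15 at 3 nM after 1, 2 and 4 h. Leaving out replicates gave 18 to 31 at 3 nM after 1 h. The causes were not tested.

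Between doses on TPM, members higher at 3 than at 0.2 nM were 3, 3 and 2 after 2, 4 and 16 h, and at 0.2 nM 8 were lower than at 0.01 nM after 4 h and 8 higher after 24 h. Between times on TPM, 15 were higher at 16 h than at 8 h and 18 lower at 24 h than at 16 h at 0.01 nM, and 4 were lower at 4 h than at 2 h at 0.2 nM. At 3 nM on TPM 0, 1 and 4 were higher at 2, 4 and 8 h than at the time before, and at 24 h against 16 h 0 were higher and 2 lower. Untreated set 2 had 0 lower than set 1, and the change from 4 to 24 h was lower at 3 nM in 9. For the 3 counts of 0 with limma, an unadjusted p under 0.05 gave 0, 1 and 0 members in the order given, and DESeq2 called 6, 5 and 10. Without a filter, 6 members were lower after 8 h, 19 higher after 16 h and 8 lower after 24 h at 3 than at 0.2 nM, 15 were higher at 8 h than at 4 h at 3 nM, and 6 were lower in untreated set 2. DESeq2 called 5 higher at 8 h than at 4 h at 3 nM.

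Leaving out replicates, members called at 3 against 0.2 nM ranged from 7 to 13 (higher, 2 h), 13 to 22 (higher, 4 h), 6 to 12 (higher, 16 h) and 8 to 13 (lower, 24 h), and at 0.2 against 0.01 nM from 7 to 15 (lower, 4 h) and 5 to 14 (higher, 24 h). Between times they ranged from 3 to 9 (lower, 2 h) and 9 to 20 (higher, 4 h) at 0.01 nM, and from 2 to 4 (lower, 2 h), 4 to 7 (lower, 4 h) and 15 to 29 (higher, 8 h) at 0.2 nM. At 3 nM they ranged from 1 to 6 (higher, 2 h), 6 to 12 (4 h), 3 to 18 (8 h) and 0 to 3 (24 h), and 2 to 6 (lower, 24 h). Members lower in untreated set 2 ranged from 3 to 11, and those with a lower change at 3 nM from 9 to 21.

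The direction reversed on log2(TPM + 0.1) and log2(TPM + 1) for TYMS at 0.2 nM after 24 h (0.050 and 0.050), POLE2 at 0.01 nM after 2 h (0.097 and 0.094) and RFC1 at 0.01 nM after 2 h (0.15 and 0.15), and against set 1 alone for UHRF1 at 3 nM after 24 h (-0.15).

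The replicate numbers were not taken to pair the samples: the correlations of deviations between same-numbered samples of different groups had a median of 0.017 (range -0.39 to 0.38), with 105 of 570 over 0.1, and 32 of 60 libraries were closest to their own number. Among the treated groups at 1, 2 and 4 h the median was 0.064, against -0.047 between different numbers, and replicate 1 had the highest summed TPM of the members in 8 of these 9 groups. With the replicate block, members lower than untreated were 36, 37 and 22 at 0.01 nM after 1, 2 and 4 h and 23 at 3 nM after 4 h, and members higher were 39 at 0.01 nM after 16 h, 29 at 0.2 nM after 24 h and 24 at 3 nM after 24 h. The block changed no other count against untreated by more than 1.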
